A study of Mus musculus with 4 samples.

Results

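Interferon-stimulated genes are the genes that a cell switches on when interferon reaches its receptor. Chromatin accessibility at 46 of them was examined in hematopoietic stem cells (HSCs) from mouse bone marrow. The genes were given as a list of names, and a peak was taken for a gene when it overlapped the gene body or the 10 kb on either side (mm10). This gave 102 accessible regions out of 45475 on the autosomes and chromosome X, and set 46 loci beside the 21755 protein-coding genes of the annotation. Mx2 is annotated there as a polymorphic pseudogene, and the other members are protein-coding. Mx1 accounts for 3 of the 102 regions and is described apart, since the KO mice carry a transgene with its promoter. All counts of members below are for the other 45 genes and 99 regions.

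The assay was ATAC-seq, which tags open DNA by transposition, on C57BL/6 bone marrow HSCs sorted as LSK CD150+ CD34- CD48- cells by the labels, and as CD150+ CD48- LSK cells, with no CD34 gate, by the methods of the study. WT mice were homozygous for a floxed Med23, a subunit of the mediator complex, and had no cre. KO mice had the same floxed alleles and Mx1-cre, a recombinase driven by the interferon-inducible Mx1 promoter, which is active in many cell types besides HSCs. Deletion was induced with poly(I:C), a synthetic double-stranded RNA that itself raises interferon, and the sources used here do not state whether the WT mice of these libraries received it. They do not give the age or the interval from injection to sorting either. The labels name 2 samples of each genotype and a single peak list for both, so the data were 1 WT list and 1 KO list, no difference could be tested against replicates, and genotype cannot be told apart from any other difference between the libraries.

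Type I interferons bind a receptor whose kinases, Jak1 and Tyk2, activate transcription factors in the cytoplasm. These form a complex with Irf9 that binds the interferon-stimulated response element (ISRE), a pair of GAAA repeats, in the promoters of its targets. The products detect viral nucleic acid, block viral replication, edit or degrade RNA and present antigen. In the bone marrow, interferon is known to bring quiescent HSCs into cycle.

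The ISRE is the binding site that defines the response, and it is shown here for 10 promoters with different outcomes in the peak lists. The core was searched as GAAANNGAAA on both strands of the RefSeq promoter sequences (GRCm38.p6, the build of mm10), which run from 250 bases before to 50 bases after a start site. Of the 46 members, 34 had such a sequence, and Mx1, Mx2, Oas2, Usp18, Ifi27, Dhx58, Parp9, Parp14, Zbp1, Rtp4, Ifi204 and Ly6e had none in the table. The core was present in 17 of the 34 members (50%) and in 3.99% of the 27025 genes of the table. The sequences below are upstream of the start site and run 5′ to 3′ on the strand of the gene. Capitals mark 1 core, read either as GAAANNGAAA or, where it lies on the opposite strand, as TTTCNNTTTC.
Ifit1 (chr19:34640769-34640848, plus strand): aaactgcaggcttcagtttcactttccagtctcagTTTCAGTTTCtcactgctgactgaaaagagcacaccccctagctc
Ifit3 (chr19:34583372-34583451, plus strand): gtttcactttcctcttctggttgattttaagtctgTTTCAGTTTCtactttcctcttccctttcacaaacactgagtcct
Isg15 (chr4:156200846-156200925, minus strand): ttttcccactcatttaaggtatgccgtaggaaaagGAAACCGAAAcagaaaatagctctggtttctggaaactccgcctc
Oas3 (chr5:120777690-120777769, minus strand): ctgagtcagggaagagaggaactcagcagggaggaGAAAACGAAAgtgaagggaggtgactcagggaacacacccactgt
Rsad2 (chr12:26456528-26456607, minus strand): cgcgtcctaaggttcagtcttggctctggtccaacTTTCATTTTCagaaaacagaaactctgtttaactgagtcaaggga
Bst2 (chr8:71537552-71537631, minus strand): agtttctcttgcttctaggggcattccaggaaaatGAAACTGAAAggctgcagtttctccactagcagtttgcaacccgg
Gbp2 (chr3:142620569-142620648, plus strand): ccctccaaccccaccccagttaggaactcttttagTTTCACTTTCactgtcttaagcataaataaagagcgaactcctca
Gbp7 (chr3:142530248-142530327, plus strand): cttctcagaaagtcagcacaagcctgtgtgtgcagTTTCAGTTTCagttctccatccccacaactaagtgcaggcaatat
B2m (chr2:122147513-122147592, plus strand): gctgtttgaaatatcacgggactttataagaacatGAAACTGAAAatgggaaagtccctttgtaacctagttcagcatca
Cxcl10 (chr5:92349058-92349137, minus strand): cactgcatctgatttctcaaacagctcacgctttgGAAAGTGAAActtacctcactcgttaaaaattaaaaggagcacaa

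Counted from the RefSeq start site, the marked core began at −85 in Ifit1, −122 in Ifit3, −72 in Isg15, −75 in Oas3, −120 in Rsad2, −124 in Bst2, −59 in Gbp2, −53 in Gbp7, −139 in B2m and −213 in Cxcl10. Ifit1 had another core at −104 and Ifit3 at −156, so both carry a tandem pair. Isg15 had overlapping cores at −78, −72 and −66, and Bst2 had overlapping cores at −130 and −124. The start sites of Ifit1, Rsad2, Bst2, Gbp2, Gbp7, B2m and Cxcl10 lay inside a peak of both lists. Those of Ifit3, Isg15 and Oas3 lay in no peak, although all 3 promoters carry the core. For Ifit3 a short peak was called just upstream of the start site in both lists.

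The peak lists held 37919 peaks in WT and 37639 in KO, and their read totals are unknown. The signal of a peak is given here as its pileup, the number of fragments or reads over the summit, recovered from the authors' fold enrichment and −log10 p for 99.99% of peaks of each list. The median pileup was 18 in WT and 19 in KO, over a genome-wide background of 1.19 and 1.13. Where a region had 1 peak of each list, a one-to-one region, the KO to WT ratio is the ratio of pileups, each divided by the background of its list, on the log2 scale. Its median over all 28909 such regions was 0.17, a 1.12-fold ratio. The 95% intervals on single ratios are exact binomial intervals of the pileups and cover counting error only. In sorted cells taken as a bulk, a larger share of cells with an open site and a more open site in each cell cannot be told apart. The sort was checked by promoter peaks at marker genes. Stem cell markers had them at 9 of 12 in WT and 8 of 12 in KO, with Ly6a, Slamf1 and Procr lacking one in both lists. Granulocyte and monocyte markers had 2 and 1 of 8, erythroid markers 2 and 2 of 6, B cell markers 2 and 2 of 4, T and NK cell markers 1 and 1 of 5, plasmacytoid dendritic cell markers 2 and 1 of 4, and stroma and endothelium 4 and 2 of 4. Elane, Mpo, Ly6g, Klf1, Cd3e and Siglech, which define mature cells or their precursors, had no promoter peak in either list. The part of other cells in the values below was not tested.

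Mx1 (ENSMUSG00000000386.15, chromosome 16, 97447035 to 97462907, minus strand) encodes an antiviral GTPase, of which most inbred laboratory strains carry a defective allele. Its window held 1 peak in WT (502 bp) and 3 in KO (1743 bp). The promoter region (chromosome 16, 97462756 to 97463757) had a pileup of 28 in WT and 48 in KO. The log2 KO to WT ratio was 0.86 (0.16 to 1.59), higher than that of 95.1% of one-to-one regions. The interval reached below the median ratio of all regions, 0.17. The other 2 peaks were in the KO list only. They lay over the last part of the gene (97447310 to 97447642), with a pileup of 14, and downstream of it (97444076 to 97444620), with a pileup of 11. Reads from the Mx1 promoter of the cre transgene align to the endogenous promoter, so additional copies of that sequence in KO cells and a more open endogenous promoter cannot be told apart.

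Most promoters of the other members were open in both genotypes. A promoter peak, with its summit within 1000 bp of an annotated start site of the gene, was called for 41 of 45 members in WT and for the same 41 in KO. Among all protein-coding genes the shares were 61.1% in WT and 60.8% in KO. No member had a promoter peak in 1 list only, and of the 13885 coding genes with a promoter peak in either list, 91% had one in both. The members without one were Isg15, Oas2, Oas3 and Oasl1. Promoter summits lay close to the start site, within 100 bp in 31 of 45 member promoter regions (68.9%) and in 59.7% of all 14630 promoter regions. In the map of peaks around start sites, the paired blocks at the centre line are these promoters. Gaps fall at Isg15, Oas2, Oas3 and Oasl1, and Rtp4 has a WT peak alone there, since its other start site lies beyond the map.

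**Figure D1:**
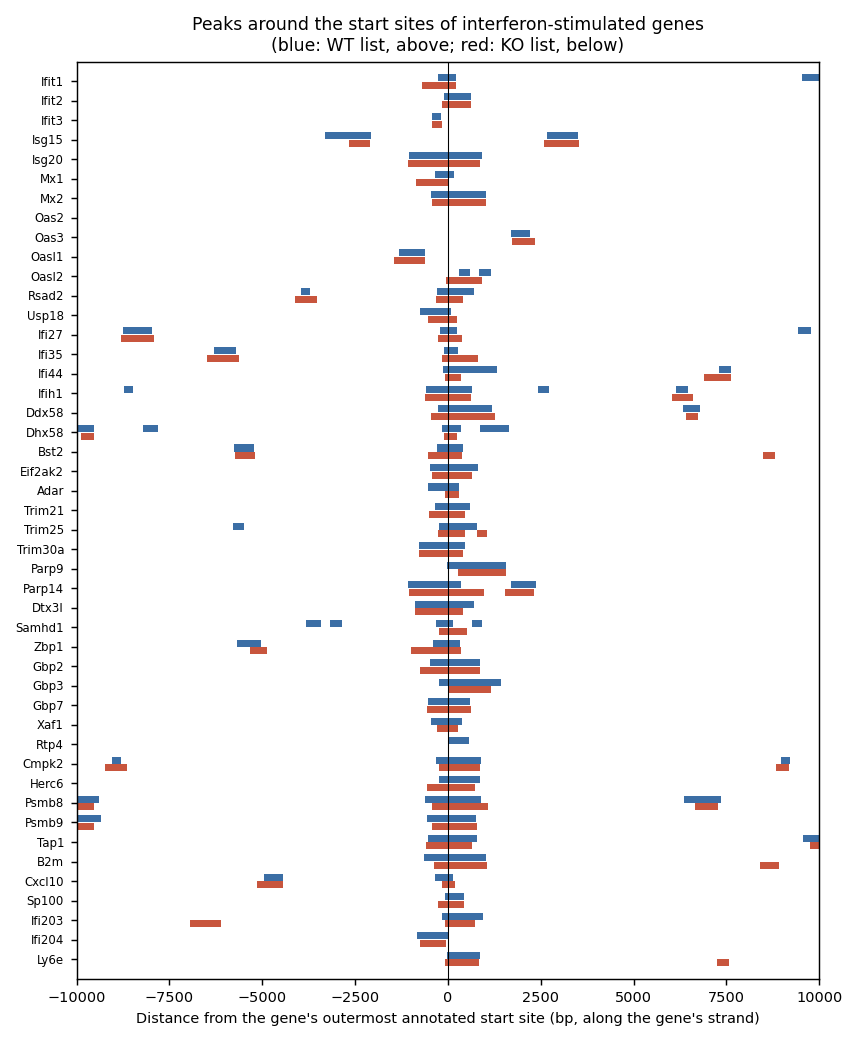
Peaks of the WT list (blue) and the KO list (red) within 10 kb of the outermost annotated start site of each of the 46 members. The horizontal axis is the distance in bp along the strand of the gene, each bar is 1 peak, and Oas2 has no peak in either list.

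**Figure D2:**
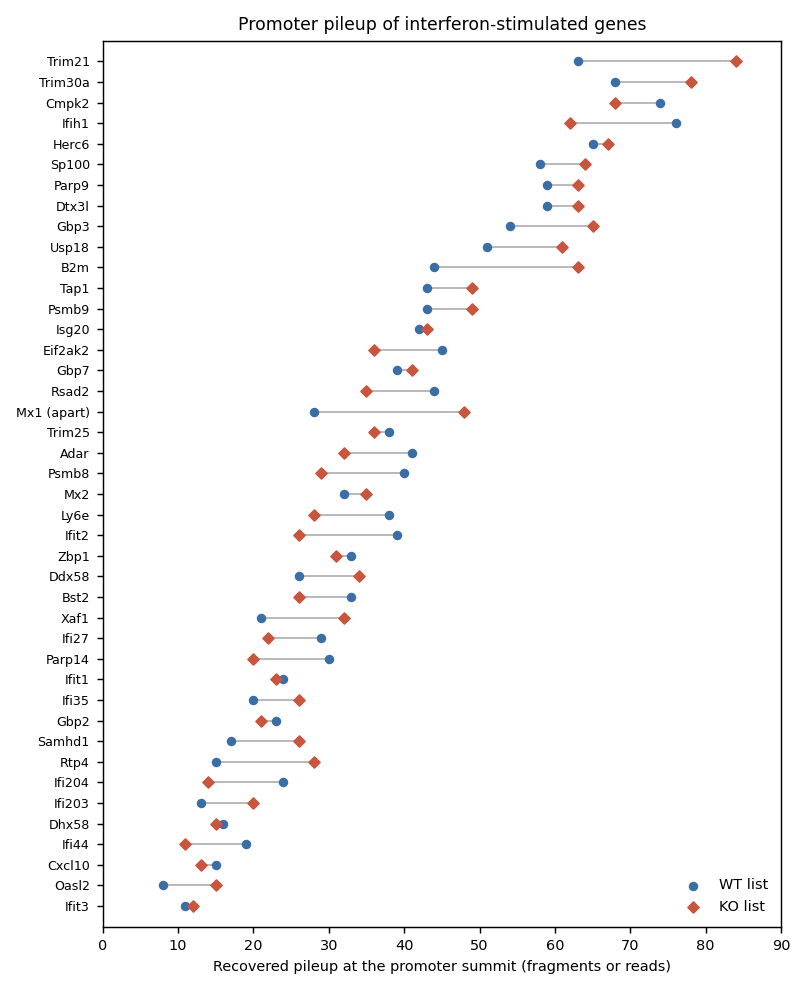
Recovered pileup at the promoter summit in the WT list (circles) and the KO list (diamonds) for the 41 members with a promoter peak and for Mx1. The horizontal axis counts fragments or reads, each line joins the 2 values of a gene, and the points of most genes lie close together, with Trim21 at 84 and Ifih1 at 76 the highest of the KO and WT lists.

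The IFIT proteins bind the foreign ends of viral RNA, and their genes lie side by side on chromosome 19. The Ifit1 promoter had a pileup of 24 in WT and 23 in KO (log2 0.02, −0.87 to 0.91). Ifit3 had a weak promoter peak, with 11 and 12. Ifit2 differed in opposite directions within the gene. Its promoter (34550536 to 34551316) had 39 in WT and 26 in KO (log2 −0.50, −1.27 to 0.25). A region in an exon (34570000 to 34570474) had 10 in WT and 21 in KO (log2 1.16, 0.01 to 2.41). The downstream flank of Ifit1 held 2 regions in the WT list only, with pileups of 12 and 14, and its covered bases were 1607 in WT and 926 in KO. The IFIT genes are closely related copies, and how the authors treated reads with several matches is not given in the sources used here, so reads may be split among them.

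Isg15 (ENSMUSG00000035692.6, chromosome 4, ending at 156200818 on the minus strand) encodes a ubiquitin-like modifier. The peaks in its window lay at the promoters of its neighbours, Agrn, with a pileup of 31 in WT and 28 in KO, and AW011738, with 20 in each list. The other genes of the system had promoter peaks in both lists. Usp18, which removes ISG15 from proteins, had 51 in WT and 61 in KO at its promoter. Herc6, the mouse ligase for ISG15, had 65 and 67. Trim25, a ubiquitin ligase in RNA sensing, had 38 and 36, and the exonuclease gene Isg20 had 42 and 43. Of these 4 promoter ratios, with a median of 0.12, that of Usp18 was above 0.17. Downstream of Trim25 (chromosome 11, 89024045 to 89024592) lay the strongest member region of the WT list that had no KO peak, with a pileup of 29.

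The OAS enzymes make the messenger that activates RNase L. Oas2 had no peak in its window in either list. Oas3 had no promoter peak, and a region in its intron (chromosome 5, 120775308 to 120775952) had 21 in WT and 35 in KO (log2 0.82, 0.00 to 1.68). Oasl1 had peaks only outside its promoter. Oasl2 had 2 weak WT peaks at its promoter, the stronger with a pileup of 8, and 1 KO peak with 15, so no ratio was formed. Mx2, the neighbour of Mx1 with its own promoter, had 32 in WT and 35 in KO (log2 0.21, −0.52 to 0.95).

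All 8 sensor genes had promoter peaks in both lists. At their strongest promoter regions 2 of 8 ratios were above 0.17, with a median of −0.11, against 43.3% and 0.09 over all promoter regions. The values over the series count every promoter region of a gene. Ifih1, which encodes the cytosolic sensor of long double-stranded RNA, had the highest WT promoter pileup among members, 76, against 62 in KO (log2 −0.21, −0.72 to 0.30). At another annotated start site of Ifih1 (chromosome 2, 62639649 to 62640232) the pileup was 15 in WT and 31 in KO (log2 1.13, 0.20 to 2.13) with an interval above the median of all regions. A region downstream of the gene had 11 in WT and 7 in KO. The promoter of Ddx58, the gene of the RNA sensor RIG-I, had 26 and 34, and that of Dhx58, its relative, had 16 and 15. Zbp1, which binds left-handed nucleic acid, had 33 and 31, and Eif2ak2, the kinase PKR, had 45 and 36. Adar, which edits adenosine in double-stranded RNA, had 41 and 32 at its main promoter and 14 and 9 at an upstream start site.

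The DNA sensors of the Ifi200 family differed from each other. The Ifi203 promoter had 13 in WT and 20 in KO (log2 0.71, −0.37 to 1.84), and the strongest member region of the KO list without a WT peak lay upstream of it (chromosome 1, 173948795 to 173949625), with a pileup of 18. The Ifi204 promoter had 24 in WT and 14 in KO (log2 −0.69, −1.76 to 0.32). Both intervals include 0.17. These genes belong to a cluster of similar copies, so reads may be split among them as well.

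Rsad2, the antiviral enzyme viperin, and Cmpk2, a nucleotide kinase, are neighbours on chromosome 12. The Rsad2 promoter had 44 in WT and 35 in KO, and the Cmpk2 promoter, one of the strongest, had 74 and 68. Between the genes, a stretch (26459972 to 26460568) had 20 in WT and 36 in KO (log2 0.93, 0.11 to 1.80), and a region in an exon of Cmpk2 had 7 and 13. Samhd1, which breaks down deoxynucleotides, had 17 and 26 at its promoter (log2 0.70, −0.24 to 1.67), while 3 weak regions beside it were in the WT list only. Bst2, or tetherin, had 33 and 26, and the promoter of its neighbour Mvb12a had 36 and 23.

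Among the TRIM, PARP and nuclear body genes, the strongest promoter regions of the 7 members are 6 distinct regions. Of these, 5 had ratios above 0.17, and the intervals of all 6 included that median. Over the series 43.3% of promoter regions lay above it, a share that counts every promoter region of a gene. Parp9 and Dtx3l, partners in ubiquitin signalling, share 1 divergent promoter and therefore 1 value, 59 in WT and 63 in KO (log2 0.18, −0.36 to 0.72). Trim21, an intracellular antibody receptor, had 63 and 84, the largest sum of the members' promoters at GENCODE start sites (log2 0.50, 0.01 to 1.00). Trim30a had 68 and 78, and a region in its intron, which holds a RefSeq start site of the gene, had 89 and 107. Sp100 had 58 and 64 at its strongest promoter region and 13 and 19 at another start site (log2 0.63, −0.46 to 1.77). Xaf1 had 21 and 32 (log2 0.69, −0.15 to 1.56). Parp14 was the exception, with 30 in WT and 20 in KO (log2 −0.50, −1.39 to 0.36).

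The guanylate binding proteins Gbp2, Gbp3 and Gbp7, GTPases that attack intracellular pathogens, had pileups of 23 and 21, 54 and 65, and 39 and 41 in WT and KO. Psmb9, an immunoproteasome subunit, and Tap1, a peptide transporter, share 1 promoter on chromosome 17, with 43 and 49. Psmb8, the other immunoproteasome gene there, had 40 and 29 (log2 −0.38, −1.12 to 0.35). B2m, the light chain of MHC class I, had 44 and 63 (log2 0.60, 0.03 to 1.19).

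Of the remaining members, Rtp4 had the highest ratio of the members' main promoters, with 15 in WT and 28 in KO (log2 0.99, 0.03 to 2.00). A region in its intron (chromosome 16, 23557123 to 23557681) had 14 and 29 (log2 1.14, 0.17 to 2.17), the lower bound lying just above the median of all regions before rounding. Its covered bases went the other way, 1944 in WT and 1173 in KO, and a region of 553 bp at another start site was in the WT list only. Ifi44 had the lowest ratio, with 19 and 11 (log2 −0.70, −1.92 to 0.44). The chemokine gene Cxcl10 had 15 and 13, Ifi27 had 29 and 22, Ifi35 had 20 and 26, and Ly6e had 38 and 28.

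Across the 45 members, 76 of 99 regions (76.8%) were in both lists, against 64.8% of all regions. In the WT list only were 15 (15.2%, against 18.1%), and in the KO list only 8 (8.08%, against 17.2%). This balance depended on the threshold of the lists, with 10 and 10 at a −log10 q of at least 5 and with 4 in WT only and 17 in KO only at 10. The shares over all regions at these thresholds are not given here. Over the whole lists the median fold enrichment was 6.38 in WT and 7.44 in KO, and its part in this shift was not tested. The regions in 1 list only were weak, with median pileups of 11 in WT and 11.5 in KO, and ranged from 6 to 29 and from 7 to 18. They lay mostly away from the members' promoters. Of 45 member promoter regions, 42 were in both lists and 3 in the WT list only, at genes that had another promoter region in both lists, Samhd1, Dhx58 and Rtp4. The Rtp4 region lay at a start site far upstream of the other. Of the 14 promoters of neighbouring genes, 10 were in both lists and 4 in WT only. Of the 40 regions outside all promoters, 24 were in both lists, 8 in WT only and 8 in KO only. Promoter regions made up more of the member regions than of the series, and over the series 86% of promoter regions and 54.7% of other regions were in both lists.

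The median log2 ratio of the 74 member regions that had a single peak in each list was 0.21 (SD 0.45 across regions, quartiles −0.06 and 0.55). This was 0.04 above the median of all regions, and 40 of 74 (54.1%) lay above it. At least 1.5-fold higher in KO, relative to that median, were 7 regions, against 7.63% of all regions, and at least 1.5-fold lower were 7, against 7.91%. Ifih1, Ifit2, Oas3, Cmpk2, the stretch between Rsad2 and Cmpk2, and Rtp4 with 2 regions were higher. Ifi204, Ifi44, Ifit2, Parp14, Adar, Ifih1 and the Mvb12a promoter beside Bst2 were lower. Intervals wholly above the median were seen at 2 regions, in Ifih1 and in Rtp4, against 1.91% of all regions. Intervals wholly below it were seen at 0 regions, against 1.54%. In the plot of ratios, the members run from −0.70 to 1.16, within the range of all regions, −1.91 to 2.03, and lie on both sides of the median.

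**Figure D3:**
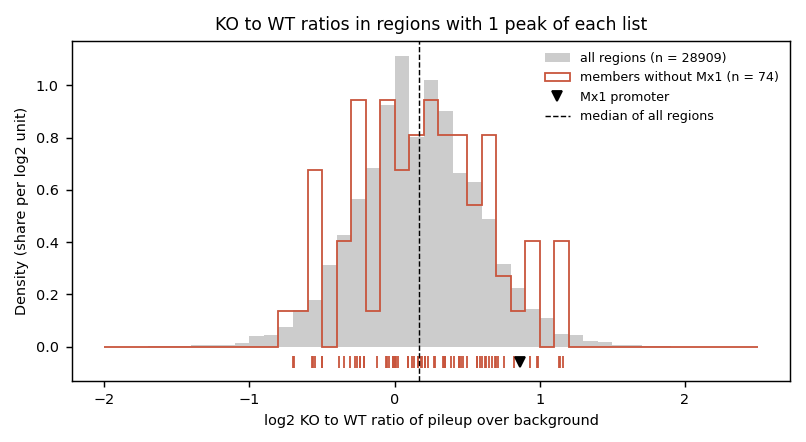
Distribution of KO to WT ratios (log2, after division by background) in all 28909 one-to-one regions (grey) and in the 74 member regions (red outline and ticks), as density per log2 unit. The dashed line is the median of all regions, 0.17, and the triangle is the Mx1 promoter at 0.86, to the right of most regions.

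The ratios were then divided by place. The median log2 ratio was 0.12 in 41 member promoter regions, with 18 above 0.17 (43.9%), and over all promoter regions it was 0.09, with 43.3% above. Promoters of neighbouring genes had a median of 0.09 in 9 regions, with 3 above. In the 24 regions outside all promoters the median was 0.44, with 19 above (79.2%), and over the series such regions had a median of 0.22, with 55% above. This difference has no test. Of the 7 member regions past 1.5-fold in the higher direction, 2 were member promoters, and of the 7 in the lower direction, 5 were. Over all regions, promoters made up 19.8% of those past 1.5-fold in the higher direction and 41.9% in the lower. Member promoters differed from other promoters in base composition, with a median GC content of 54.5% against 64%.

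The bases covered by peaks also differed in both directions. In the window of the gene body and 10 kb on each side, 19 of 45 members had more covered bases in KO and 25 had more in WT, with Oas2 at 0 in both. The balance turned at a −log10 q of 10 or more, with 24 more in KO and 18 more in WT, and in the gene body alone it was 20 to 20. Among the 21755 protein-coding genes, 8300 (38.2%) had more in KO, 8536 (39.2%) had more in WT and 4919 were equal. Their split at a −log10 q of 10 or in the gene body alone is not given here. Over the members the medians were 1584 (WT) and 1519 bp (KO), with a median difference of −65 bp. Dhx58 was farthest to the WT side, with 2149 bp in WT and 709 bp in KO, since 2 of its regions lacked a KO peak. Cmpk2 was farthest to the KO side, with 1975 and 2744 bp. At Parp14 the covered bases were 2116 and 2788 although its promoter pileup was lower in KO, so width and height of a peak did not always go together.

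**Figure D4:**
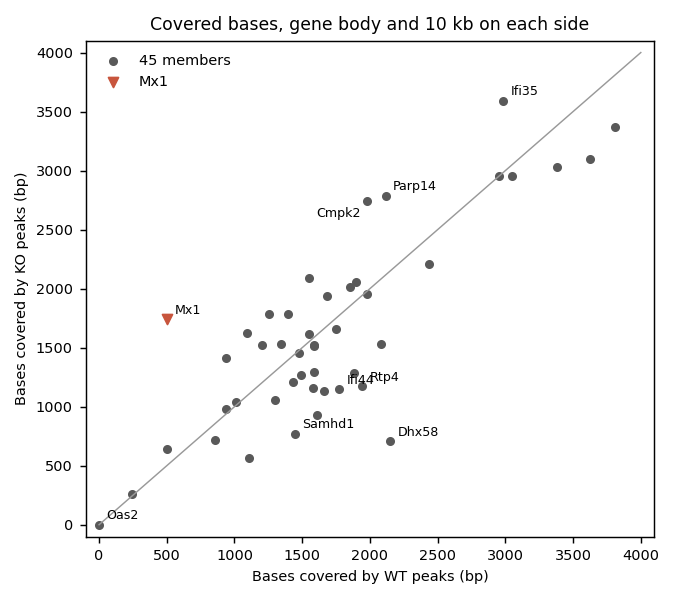
Bases covered by peaks in the gene body and 10 kb on each side in the WT list (horizontal axis, bp) and the KO list (vertical axis, bp) for 45 members (grey) and Mx1 (red triangle). Points above the line of equal coverage have more covered bases in KO, 19 of the 45 members, and Mx1 stands above it at 502 and 1743 bp.

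The ISRE core was also searched in the 200 bp around the summit of the stronger peak of each region. It was present in 26 of 99 member regions (26.3%, 95% Wilson interval 18.6 to 35.7) and in 4.42% of all regions. At promoters it was in 19 of 45 member regions (42.2%, 29 to 56.7) and in 2.16% of all promoter regions. Outside the promoters of all protein-coding genes it was in 6 of 40 member regions (15%, 7.06 to 29.1), against 5.5%. The other 14 regions of the windows were promoters of neighbouring genes, and 1 of them, that of Tap2, held the core. The 4 cores near the summit of Rtp4 and the 4 near that of Zbp1 were the most at 1 promoter. The members were named for their response to interferon, so the share of cores is a property of the list and is given as a description.

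Other motifs were less common than the ISRE core at the members' promoters. The GAS element, a site of the response to interferon gamma searched as TTCNNNGAA, was in 6 of 45 member promoter regions (13.3%) and in 3.64% of all promoter regions. The composite of ETS and IRF sites, searched as GGAANNGAAA, whose letters can overlap those of the ISRE core, was in 4 (8.89%) against 1.55%. The PU.1 site, searched as GAGGAAGT, was in 0 of 45 promoter regions (upper Wilson limit 7.87%) against 2.73%, and in 7 of the 40 regions outside promoters (17.5%) against 8.62%.

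**Figure D5:**
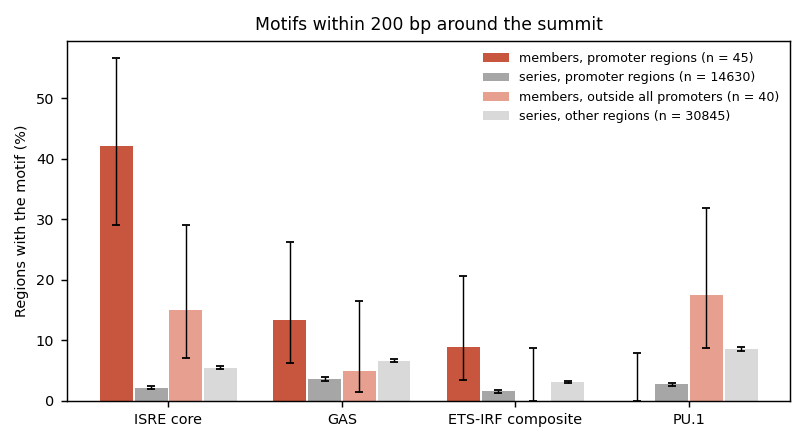
Share of regions, in percent, with each motif in the 200 bp around the summit, for the promoter regions of members and of the series and for the regions of both outside all promoters, with 95% Wilson intervals as error bars. The ISRE core stands out at member promoters, at 42.2% against 2.16%.

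All 26 member regions with an ISRE core were in both lists, and 50 of the 73 without one were. Over the series, regions with the core were in both lists at 60.6% and regions without it at 65%. Most of the 26 were promoter regions, a class shared more often. At member promoters 19 of 19 with the core and 23 of 26 without it were in both lists, against 82.3% and 86.1% of promoters over the series. Outside all promoters these were 6 of 6 and 18 of 34, against 56.6% and 54.6%. The median log2 ratio of the 26 was 0.14, and 12 of them lay above 0.17. For the 48 member regions without a core that had a ratio, the median was 0.21 and 28 lay above. The order was not the same in all places. At member promoters the median was 0.12 with the core (19 regions) and 0.07 without (22 regions). Outside all promoters the 2 medians were nearly equal, 0.45 (6 regions) and 0.44 (18 regions). At promoters of neighbouring genes the 1 region with the core had −0.01, and the median without it was 0.09 (8 regions). Over the series the medians were 0.09 with and without the core at promoters, and 0.24 and 0.21 elsewhere. None of these differences was tested.

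A list of 34 genes that act upstream of the members was followed in the same way. Promoter peaks were called for 29 in WT and 31 in KO, against 61.1% and 60.8% of all protein-coding genes. The 29 genes had one in both lists. Of all coding genes with a promoter peak in either list, 91% had one in both. Irf8, an interferon regulatory factor of myeloid and dendritic cells, had no WT peak in its window and 3 KO peaks, with a promoter pileup of 20. Traf3, an adaptor of the sensing pathway, had a promoter summit in the KO list only, inside a region with peaks of both. Ifnlr1, Tlr7 and Tlr9 had no promoter peak in either list. The median of 28 promoter ratios was 0.22, with 15 above 0.17, against 43.3% of all promoter regions. Past 1.5-fold, relative to the median, 4 were higher and 1 was lower, against 3.55% and 7.79% of all promoter regions. These ratios are from the strongest promoter region of each gene. The shares over the series, here and in the next paragraph, count every promoter region of a gene.

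Of the receptor genes, Ifnar1 had 65 in WT and 58 in KO, and Ifnar2 had 16 and 29. Among the kinases, Tyk2 had 42 in WT and 87 in KO (log2 1.14, 0.59 to 1.70), and Jak1 had 57 and 75. Mavs, the mitochondrial adaptor of RNA sensors, had 39 and 67 (log2 0.87, 0.28 to 1.47). The intervals of Tyk2 and Mavs were the 2 that lay above the median of all regions, and 0 lay below it, against 1.39% and 2.23% of all promoter regions. Of the genes whose products bind the ISRE, Stat2 had pileups of 47 and 48 and Irf9 had 37 and 41. Irf7, which amplifies the response, had 27 and 19 as the strongest pileups of its promoter region, and Irf1 had 38 and 28. Socs1, the inhibitor of the kinases, had 60 and 84 (log2 0.57, 0.08 to 1.07). Covered bases were more in KO for 21 and more in WT for 13 of the 34, with a median difference of 163 bp. Among protein-coding genes, 8300 (38.2%) had more in KO, 8536 (39.2%) had more in WT and 4919 were equal.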

How the data were processed

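The deposited files were 1 peak list and 1 summit list per genotype. By their account, the authors used Trim Galore for trimming, Bowtie2 for alignment (mm10), Picard for the removal of duplicates, discarded mitochondrial reads, and used MACS2 without a fragment model for peaks. Versions are not given in the sources used here. Neither is whether reads of both samples were pooled, or whether reads were shifted for the transposase. The deposited lists give per peak the authors' fold enrichment, a ratio of summit pileup to local background, and −log10 p and q values. The deposited display score and the separate summit lists add nothing to these and were not used.

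The pileup was solved from fold enrichment and −log10 p as the whole number that matched within 0.001, and the procedure was tested on simulated data. The background was the median over the 1000 peaks with the lowest values. Regions were unions of peaks overlapping by at least 1 bp on the 19 autosomes and chromosome X. Genes came from GENCODE, promoter sequences from RefSeq, both on GRCm38.p6. The reference sequence and these promoters were identical in 41 of 41 promoters compared. No p-value was computed, with 1 list per genotype. The members and lists were chosen with earlier results of these data known. All members were named by role. Pileups are given for Mx1, the 5 highest and 5 lowest promoter ratios and the 5 largest summed pileups. They are also given for regions past 1.5-fold and the strongest region in 1 list only. Intervals are printed for Mx1 and for the highest and lowest promoter ratios, but only for part of the rest. Alternatives were other thresholds, overlaps, windows, scales and motif settings. Analyses ran in Python with numpy, pandas and scipy.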

Additional observations from a re-analysis of the deposited data

How the results depend on the processing

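No paired analysis was possible because both samples of a genotype are represented by a single peak list. Runs without replicate 1 or 2 could not be made either. All alternatives were planned, and 44 of 69 values stayed within their interval or within 1.5 times the reported count. With a −log10 q of at least 10, 43 regions were in both lists, 4 in WT only and 17 in KO only, 91.5% of the WT and 71.7% of the KO peaks of the windows were shared (83.7% and 90.6% as reported), and 0 regions were past 1.5-fold higher and 2 lower. The balance of regions in 1 list only thus turned toward KO, as did that of covered bases, with 24 members more in KO and 18 more in WT. Shares over all regions or genes at this threshold are not given here, and the cause was not tested. Shared peaks were 67.4% of WT and 72.9% of KO with an overlap of 50% of both peaks, and 59.8% and 64.7% with summits within 100 bp. The same shares over the whole lists are not given here. In the gene body alone, 4 regions were in WT only and 2 in KO only, 93% and 96.3% of peaks were shared, and covered bases split 20 to 20. With 50 kb on each side, 158 regions were in both lists, 40 in WT only and 28 in KO only. The wider window holds more regions by construction. Over all regions of the series, where no window applies, 18.1% were in WT only and 17.2% in KO only. Past 1.5-fold higher were 4 regions with ratios of the authors' fold enrichments. Among promoter regions alone they were 2, against 3.55% of all promoter regions. Past 2-fold were 0 in each direction. Shares over all regions with fold enrichments or past 2-fold are not given here. The ISRE core was in 15.2% of regions with 100 bp around the summit, for which the share over all regions is not given here. With a T in the gap (GAAANTGAAA) it was in 15.2%, against 1.79% of all regions. At promoter regions it was in 42.2%, against 2.16% of all promoter regions. Raw pileups moved the median ratio of all regions to 0.08 and fold enrichments to 0.26. Relative to these medians, the members' median was 0.04 and 0.07. Regions missed in either list have no ratio, and the pileups are low. The intervals of 72 of 74 member ratios held the median of all regions. Over all one-to-one regions, 1.91% of intervals lay above that median and 1.54% below it. The absence of a peak does not show closed chromatin.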
